A study of Equus caballus with 68 samples.

Results

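The genes described here are 10 genes of the osteoclast and of macrophage fusion: TNFSF11, TNFRSF11A, NFATC1, OSCAR, SIGLEC15, DCSTAMP, OCSTAMP, ACP5, CTSK and CALCR. They were taken by symbol from a table of 30371 genes, and each symbol matched 1 row. The question they address is whether marrow cells that become macrophages in synovial fluid also take on an osteoclast-like program, in which fluid, and when. Bone marrow mononuclear cells (BMNC) came from 8 healthy Thoroughbred horses (2 mares and 6 geldings, 3 to 9 years old). BMNC of each horse were cultured separately in undiluted, cell-free fluid of the same horse. This was either normal synovial fluid (SF) or fluid from a joint inflamed with lipopolysaccharide (ISF). Per the study's methods, SF was taken from middle carpal joints and ISF from radiocarpal joints. Between the fluids, inflammation and the joint of origin therefore cannot be told apart. RNA was sequenced before culture (0 hours, written 0 h, 8 libraries) and after 48 h (7 libraries per fluid), 96 h (8), 6 days (8) and 10 days (7). A horse gave 1 library, from 1 well, for each fluid and time, so horses are the replicates. The fluids are those of a short experimental synovitis and of a different, healthy joint, and no bone, added RANKL or other added growth factor is named for the cultures.

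Osteoclasts are multinucleated bone-resorbing cells that form when precursors of the monocyte and macrophage lineage fuse. The cytokine RANKL (TNFSF11) binds its receptor RANK (TNFRSF11A) on the precursor, and together with signals from ITAM-coupled receptors such as OSCAR and SIGLEC15 it switches on the transcription factor NFATC1. NFATC1 in turn is known to drive the fusion proteins DC-STAMP and OC-STAMP, the resorption enzymes TRAP (ACP5) and cathepsin K (CTSK), and the calcitonin receptor (CALCR), a late marker of the mature cell. Several of these genes are not particular to osteoclasts, since macrophage giant cells also use DC-STAMP and OC-STAMP, tissue macrophages can hold ACP5, and fibroblasts can make CTSK.

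Levels are given as GeTMM, a count of reads for each kilobase of a gene after scaling of the libraries, so that genes can also be compared with each other. A library held 15.7 M to 36.0 M reads on genes (median 22.3 M). Differences between groups are log2 fold changes on the scale log2(GeTMM + 1) from 1 limma fit of all libraries, with FDR the Benjamini-Hochberg adjusted p value over the 14570 genes tested, and a gene was called at an FDR under 0.05. The added 1 makes the fold change of a low gene smaller than the ratio of its means. Horse Moon's SF library of 6 days stood apart, with GeTMM summing to 2.32 M against 0.818 M to 1.46 M in the other libraries. Compared with profiles of the horses over 200 genes, 66 of 68 libraries resembled the labelled horse most. The 200 genes were those that differed most between the labelled horses in these same libraries, so agreement with the labels is partly built in. In ISF at 96 h the libraries labelled Dealings and Dreamer resembled each other's horse instead, and counts of horses at 96 h take the labels as given.

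Over 10 days of culture 7 of the genes rose and 1 fell in both fluids. The transcripts of RANKL and the calcitonin receptor stayed at 9 reads or fewer in every library. Any read was found in 18 of the 68 libraries for TNFSF11 and in 46 for CALCR. TNFSF11 and CALCR did not reach 0.5 GeTMM in any library and were not tested. The other 8 passed the filter of 0.5 GeTMM in at least 7 libraries. All 8 were called between 0 h and 10 days in ISF, and all 8 in SF, where 74.5% and 69.6% of all tested genes were called. In each fluid TNFRSF11A, NFATC1, SIGLEC15, DCSTAMP, OCSTAMP, ACP5 and CTSK were higher and OSCAR was lower at 10 days. Among all genes, 36.1% were called higher and 38.4% lower in ISF, and 34.7% higher and 34.9% lower in SF. The median log2 fold change of the 8 genes was 2.81 in ISF and 2.57 in SF, beside -0.03 and -0.01 over all tested genes. For each of the 8 genes the 10-day libraries of either fluid lay wholly above or wholly below the 0 h libraries, as for 48.4% of all tested genes in ISF and 41.1% in SF. The comparisons of the 2 fluids with 0 h share the same 0 h libraries. In RNA from a mixed culture, a change in the number of cells that hold a transcript and a change in the amount per cell cannot be told apart.

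**Figure D1:**
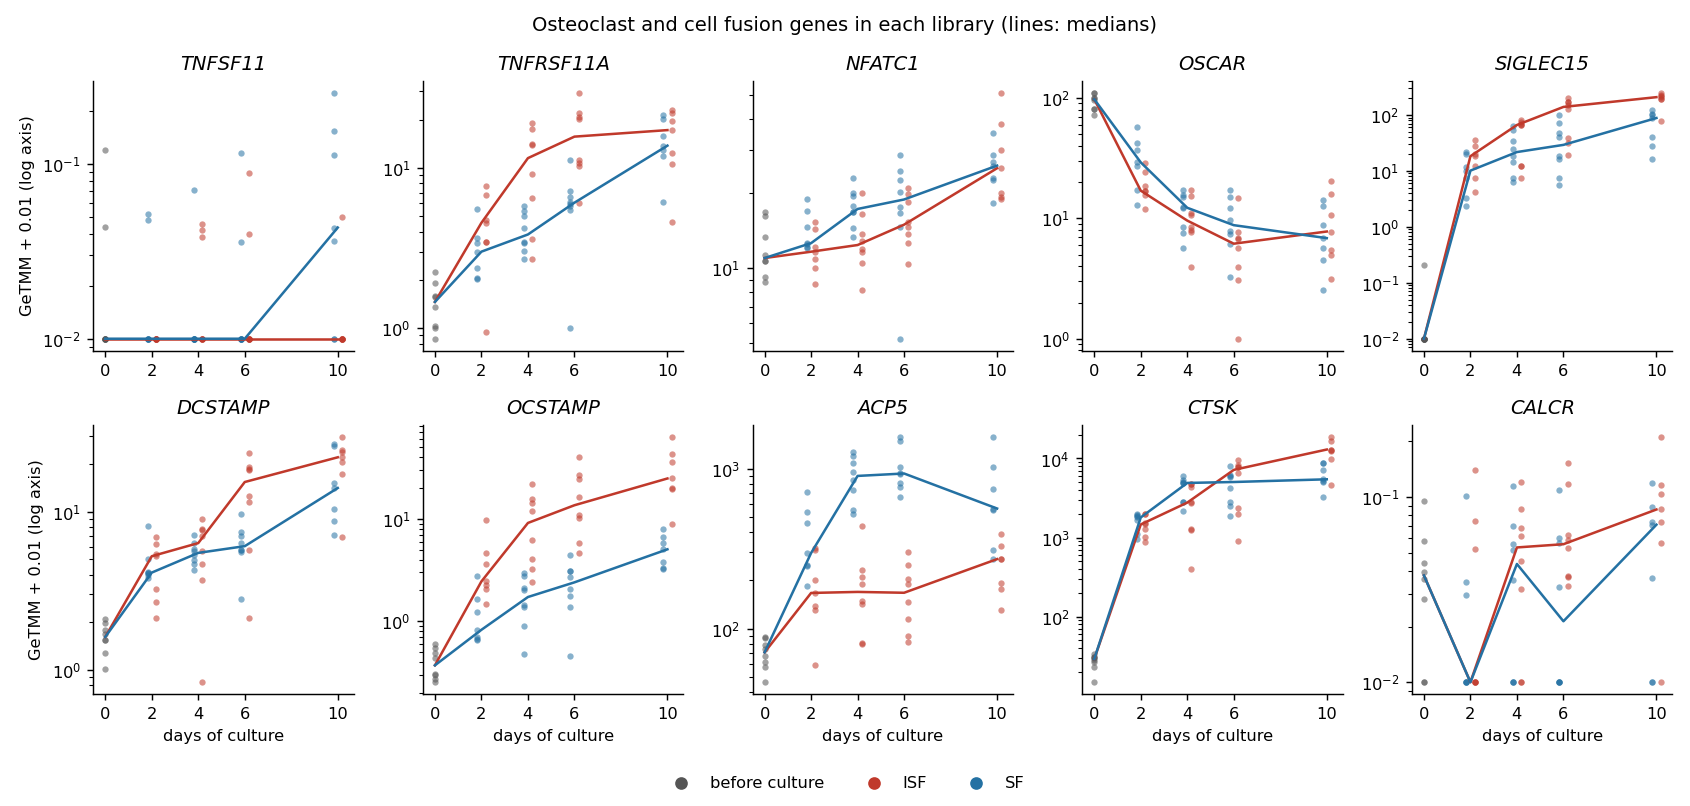
GeTMM of the 10 genes in each of 68 libraries (points; log axis, with 0.01 added so that zeros can be drawn) against days of culture, with lines through the medians of ISF and SF. CTSK and SIGLEC15 climb steeply in both fluids from 0 h, OSCAR falls, OCSTAMP is higher in ISF and ACP5 higher in SF, and TNFSF11 and CALCR stay under 0.25 GeTMM.

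The RANKL transcript was close to undetectable, and the mean of the transcript of its receptor rose 10.9-fold in ISF and 10.2-fold in SF. These are transcripts of the cultured cells, and RANKL or osteoprotegerin protein in the fluids was not measured here. TNFSF11 (ENSECAG00000016559) had 41 reads in all 68 libraries together, and 18 libraries had any. No read was found in the 7 ISF libraries at 48 h, where 3 reads, the number that a count of 0 still allows, would be 0.0783 to 0.105 GeTMM. Most reads were in SF at 10 days (19 reads in 5 of 7 libraries), with the highest library, Dealings, at 9 reads or 0.244 GeTMM. In ISF at 10 days 1 read was found in 7 libraries. The decoy receptor osteoprotegerin (TNFRSF11B), which blocks RANKL, was also below the filter, with 33 reads in SF at 96 h, 4 in SF at 10 days and none in ISF at 10 days.

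TNFRSF11A (ENSECAG00000014672) encodes RANK. It lay between 0.848 and 2.23 GeTMM at 0 h (median 1.45). In ISF the lowest, median and highest libraries were 0.942, 4.53 and 7.68 at 48 h, 2.68, 11.5 and 19.1 at 96 h, 6.02, 15.7 and 29.2 at 6 days, and 4.60, 17.2 and 23.1 at 10 days. In SF they were 2.02, 2.99 and 5.57 at 48 h, 2.68, 3.83 and 5.75 at 96 h, 0.994, 6.05 and 11.2 at 6 days, and 6.08, 13.8 and 21.5 at 10 days. RANK thus stood higher in ISF at 96 h and 6 days, with overlap between the fluids, and the fluids were alike in median by 10 days. The log2 fold change of ISF over SF was 1.01 at 96 h (SE 0.31, FDR = 0.0254, higher in 7 of 8 horses) and 1.26 at 6 days (SE 0.31, FDR = 0.00127, 7 of 8 horses). At 10 days it was 0.04 (SE 0.33, FDR = 0.956), with 4 of 7 horses higher in ISF. The call at 6 days was made under all 17 alternative settings, whereas that at 96 h was lost without Catnip, Dealings, Dreamer, Flash, Lurie or Ollie (FDR = 0.051 to 0.114) and without the 2 ISF libraries whose horse is in doubt (FDR = 0.0649). Against 0 h the log2 fold change at 10 days was 2.66 in ISF (SE 0.32, FDR = 6.46e-11) and 2.62 in SF (SE 0.32, FDR = 1.41e-10), in 7 of 7 horses each. In ISF the calls over successive intervals came from 0 to 48 h (1.07, FDR = 0.00395) and from 48 to 96 h (1.00, FDR = 0.0203), and the second was lost without Dealings, Flash or Ollie (FDR = 0.0801 to 0.0858). In SF the interval that was called was the last one, from 6 to 10 days (1.17, FDR = 0.0256), and that call was lost without Moon's SF library of 6 days (0.93, FDR = 0.0987) and without Dreamer, Lurie, Moon or Ollie (FDR = 0.0657 to 0.11). RimRun had the lowest RANK of the ISF horses at 96 h, 6 days and 10 days, at 2.68, 6.02 and 4.60 GeTMM.

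NFATC1 (ENSECAG00000019813), the transcription factor at the centre of osteoclast formation, was present before culture and rose late and modestly. At 0 h the lowest, median and highest libraries were 8.81, 11.0 and 16.9 GeTMM. At 10 days they were 19.0, 25.3 and 50.6 in ISF and 18.3, 25.9 and 35.1 in SF, all above the 0 h libraries. The mean rose 2.38-fold in ISF (log2 fold change 1.14, SE 0.20, FDR = 1.13e-06) and 2.13-fold in SF (1.04, SE 0.20, FDR = 8.04e-06). At 48 h, when CTSK had already risen steeply, NFATC1 was at 11.9 ± 2.33 GeTMM in ISF (SD, n = 7) against 12.1 ± 3.05 at 0 h (n = 8; log2 fold change -0.02, FDR = 0.957). In ISF the step that was called was the one from 6 to 10 days (0.78, SE 0.20, FDR = 0.00566, higher in 7 of 7 horses), and it was lost without Ollie (FDR = 0.0532). In SF no single step was called, although in all 6 horses with every time point (Flash and Moon have gaps) the level went up at each of the 4 steps. In ISF this was so in 0 of 6, with the labels at 96 h taken as given. No difference between the fluids was called. The largest was at 96 h (-0.42, SE 0.19, FDR = 0.159), lower in ISF in 7 of 8 horses, and it passed the threshold with library weights (FDR = 0.0242) and without Moon (FDR = 0.0324).

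The 2 ITAM-coupled receptors moved in opposite directions. OSCAR (ENSECAG00000039917), the osteoclast-associated receptor for collagen, was high in fresh marrow and fell in culture. It lay between 72.2 and 109 GeTMM at 0 h (median 97.4), between 12.02 and 28.8 in ISF and 12.95 and 57.7 in SF at 48 h, and between 3.16 and 20.4 in ISF (median 7.76) and 2.52 and 14.2 in SF (median 6.84) at 10 days. Every cultured library was below every 0-hour library. The log2 fold change from 0 h to 10 days was -3.33 in ISF (SE 0.33, FDR = 6.06e-14) and -3.55 in SF (SE 0.33, FDR = 9.02e-15), lower in 7 of 7 horses each. By 48 h the log2 fold change was -2.28 in ISF (FDR = 2.89e-08) and -1.65 in SF (FDR = 3.02e-05), and in SF a further step of -1.30 from 48 to 96 h was called (FDR = 0.00164). No difference between the fluids was called for OSCAR, the largest being -0.68 at 6 days (SE 0.32, FDR = 0.101), which passed without Lurie (FDR = 0.0373). The neutrophil precursor genes of the marker lists (4 of 6 in the table: MPO, ELANE, AZU1 and LTF) fell over the same days, from a summed level of 10180 to 19260 GeTMM at 0 h to 0.414 to 58.8 in ISF and 1.90 to 1418 in SF at 10 days. Their part in the fall of OSCAR was not tested.

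SIGLEC15 (ENSECAG00000018025), a sialic acid receptor that pairs with the adaptor DAP12 and is needed for full osteoclast maturation, went from nearly no reads to a median of over 80 GeTMM in SF and over 200 in ISF. At 0 h 7 libraries had no read and the library of Moon had 3 (0.200 GeTMM). In ISF the lowest, median and highest libraries were 4.19, 18.3 and 35.8 GeTMM at 48 h, 7.43, 66.2 and 79.98 at 96 h, 19.5, 139 and 199.96 at 6 days, and 76.6, 208 and 244 at 10 days. In SF they were 2.39, 10.1 and 21.9 at 48 h, 6.34, 21.7 and 63.4 at 96 h, 5.66, 29.2 and 97.9 at 6 days, and 16.2, 88.3 and 122 at 10 days. Every cultured library was thus above every 0-hour library, and at 10 days 6 of the 7 ISF libraries lay above all SF libraries, with Catnip the exception. Summed over the libraries, the level at 10 days was 8394 times that at 0 h in ISF and 3054 times in SF. With only 3 reads at 0 h the 95% exact interval of these ratios runs from 2872 to 40710 and from 1045 to 14810, for counting error only. ISF exceeded SF by 1.69 on the log2 scale at 6 days (SE 0.53, FDR = 0.0118, higher in 8 of 8 horses) and by 1.65 at 10 days (SE 0.57, FDR = 0.0309, 7 of 7 horses). The call at 6 days was lost without Lurie (1.31, FDR = 0.0686) and when the fit held no other groups (FDR = 0.0855). That at 10 days was lost without Dealings (1.43, FDR = 0.133), Dreamer (1.71, FDR = 0.0535) or Lurie (1.32, FDR = 0.125), and with library weights (1.47, FDR = 0.0571). Lurie had the largest difference at both times, 4.35 and 3.61. At 48 and 96 h the difference was 0.70 each (FDR = 0.636 and 0.463).

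The 2 fusion genes rose in both fluids, and OCSTAMP was the one that separated the fluids. DCSTAMP (ENSECAG00000019191) was at 1.01 to 2.09 GeTMM at 0 h. At 48 h its libraries lay between 2.11 and 6.93 in ISF and between 3.80 and 8.07 in SF, and at 96 h between 0.827 and 9.03 and between 4.24 and 7.11. At 6 days the lowest, median and highest libraries were 2.13, 15.4 and 23.3 in ISF and 2.78, 6.04 and 9.65 in SF. At 10 days they were 6.92, 22.0 and 29.6 in ISF and 7.11, 14.1 and 26.8 in SF. Levels in the fluids overlapped throughout, with the widest gap between medians at 6 days. The log2 fold change of ISF over SF was 0.85 at 6 days (SE 0.29, FDR = 0.0210, higher in 6 of 8 horses) and 0.44 at 10 days (SE 0.31, FDR = 0.346). The call at 6 days was made under 10 of 17 alternatives and was lost with limma voom (FDR = 0.0568), with no other groups in the fit (FDR = 0.135), without the SF library of Moon (0.72, FDR = 0.0502) and without Lurie, Moon, Ollie or RimRun (FDR = 0.0613 to 0.098). Against 0 h DCSTAMP rose by 2.97 in ISF (SE 0.30, FDR = 1.72e-13) and 2.53 in SF (SE 0.30, FDR = 5.29e-11) at 10 days. In ISF a second step of 1.05 from 96 h to 6 days was called (FDR = 0.0196, higher in 8 of 8 horses, lost without Dreamer, Lurie, Ollie or RimRun at FDR = 0.0573 to 0.102). In SF a step of 1.09 from 6 to 10 days was called (FDR = 0.0260, 7 of 7 horses, lost without Moon's SF library of 6 days at FDR = 0.082 and without Dreamer, Moon or Ollie at 0.0621 to 0.127). Flash had the lowest DCSTAMP in ISF at 96 h and 6 days, and Catnip at 10 days.

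OCSTAMP (ENSECAG00000010281) began lower than DCSTAMP, at 0.244 to 0.589 GeTMM. In ISF the lowest, median and highest libraries were 1.47, 2.44 and 9.74 at 48 h, 2.43, 9.10 and 22.0 at 96 h, 4.58, 13.6 and 40.6 at 6 days, and 8.95, 24.8 and 63.2 at 10 days. In SF they were 0.641, 0.816 and 2.78 at 48 h, 0.473, 1.72 and 2.93 at 96 h, 0.448, 2.39 and 4.38 at 6 days, and 3.24, 5.03 and 8.01 at 10 days. At 6 and at 10 days every ISF library was above every SF library, and in all 7 or 8 horses at each of the 4 times the ISF culture was above the SF culture of the same horse. Over all tested genes, libraries were wholly higher in ISF for 2.1% at 6 days and 2.26% at 10 days. The log2 fold change of ISF over SF was 1.00 at 48 h (SE 0.37, FDR = 0.152), 1.76 at 96 h (SE 0.34, FDR = 0.000211), 2.25 at 6 days (SE 0.34, FDR = 5.80e-07) and 2.21 at 10 days (SE 0.37, FDR = 6.04e-06). At 48 h a fit with horse as a term called it (FDR = 0.0314). At the 3 later times it was called under every one of the 17 alternatives, with FDR of at most 0.00514. The 10-day mean was 30.8 ± 18.2 GeTMM for ISF (SD, n = 7), 78.5 times that at 0 h, and 5.13 ± 1.83 for SF (n = 7), 13.1 times. In ISF the first 2 intervals were called, with 1.61 from 0 to 48 h (FDR = 0.000108) and 1.07 from 48 to 96 h (FDR = 0.0233, lost without Dealings, Ollie or RimRun at FDR = 0.0828 to 0.135).

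The balance between the 2 fusion genes differed with the fluid. Per kilobase, the ratio of OCSTAMP to DCSTAMP was 0.163 to 0.335 at 0 h. In ISF its median was 0.688 at 48 h, 1.86 at 96 h, 1.60 at 6 days and 1.45 at 10 days, whereas in SF it was 0.182, 0.355, 0.338 and 0.258. OCSTAMP was thus the more abundant of the pair in the median ISF library from 96 h on, and the less abundant in every SF library. Ranges overlapped at each time, with ISF libraries from 0.377 (Moon) to 2.91 (Catnip) and SF libraries from 0.142 (Dealings) to 0.919 (RimRun) at 10 days. Moon had the lowest ratio in ISF at 96 h, 6 days and 10 days.

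**Figure D2:**
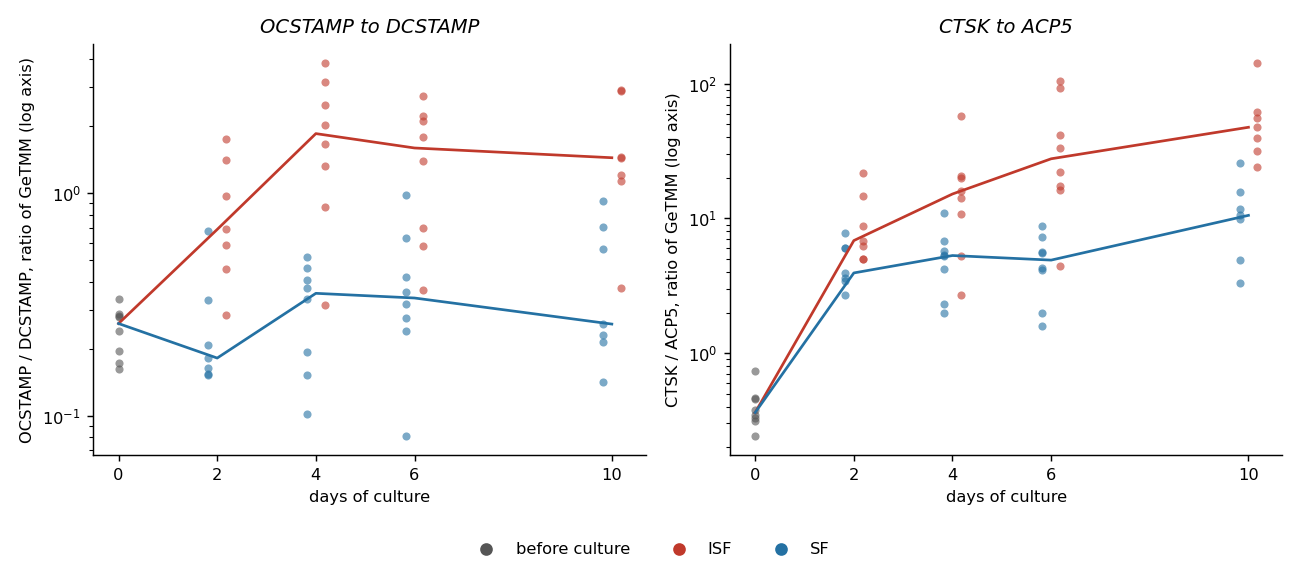
Ratio of GeTMM of OCSTAMP to DCSTAMP (left) and of CTSK to ACP5 (right) in each library against days of culture, on log axes, with lines through the medians. Both ratios are higher in ISF, where the median of CTSK to ACP5 reaches 47.5 at 10 days against 10.5 in SF.

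The 2 resorption enzymes went apart. CTSK (ENSECAG00000019087), the protease that digests bone collagen, became one of the most abundant transcripts in both fluids. It was at 14.8 to 34.0 GeTMM at 0 h (median 29.1). In ISF the lowest, median and highest libraries were 890, 1464 and 2013 at 48 h, 406, 2767 and 4710 at 96 h, 896, 7175 and 9455 at 6 days, and 4642, 12980 and 18810 at 10 days. In SF they were 972, 1796 and 1957 at 48 h, 2175, 4906 and 6028 at 96 h, 1846, 5041 and 8113 at 6 days, and 3278, 5453 and 8843 at 10 days. All cultured libraries were far above all 0 h libraries, and the fluids overlapped at each time. In the 10-day ISF libraries CTSK ranked between place 4 and place 23 of all genes per kilobase and made up 0.911 ± 0.305% of the reads on genes (SD, n = 7), against 0.00208 ± 0.000527% at 0 h (n = 8). The rise from 0 h to 10 days was 8.73 on the log2 scale in ISF (SE 0.39, FDR = 5.43e-29) and 7.75 in SF (SE 0.39, FDR = 2.76e-26), in 7 of 7 horses each. Most of it came by 48 h, with 5.66 in ISF and 5.82 in SF. Afterwards the steps that were called lay late in ISF (1.42 from 6 to 10 days, FDR = 0.0107, lost without Dealings at FDR = 0.0696) and early in SF (1.36 from 48 to 96 h, FDR = 0.00607).

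The fluid difference of CTSK was called at none of the 4 times, though it leaned towards SF at 96 h (-0.89, SE 0.38, FDR = 0.125, lower in ISF in 7 of 8 horses) and towards ISF at 10 days (0.98, SE 0.41, FDR = 0.0764, higher in ISF in 6 of 7 horses). The difference at 10 days passed the threshold with horse as a term (FDR = 0.0309), in a fit of only the 2 groups (FDR = 0.0495), with library weights (FDR = 0.0417) and without Flash (FDR = 0.025), and that at 96 h with library weights (FDR = 0.0239). The change of the fluid difference from 48 h to 10 days was 1.14 (SE 0.57, FDR = 0.306).

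ACP5 (ENSECAG00000012113), the acid phosphatase known as TRAP and the classical stain for osteoclasts, was higher in SF. It was at 46.2 to 88.8 GeTMM at 0 h (median 71.0). In SF the lowest, median and highest libraries were 184, 297 and 718 at 48 h, 517, 901 and 1281 at 96 h, 664, 933 and 1583 at 6 days, and 274, 563 and 1577 at 10 days. In ISF they were 59.4, 167 and 320 at 48 h, 79.6, 170 and 437 at 96 h, 82.8, 168 and 299 at 6 days, and 131, 272 and 393 at 10 days. At 96 h and 6 days every SF library was above every ISF library, a separation in this direction that 0.824% and 1.24% of all tested genes showed, and SF was above ISF in every horse at each of the 4 times. The log2 fold change of ISF over SF was -1.05 at 48 h (SE 0.34, FDR = 0.0954), -2.36 at 96 h (SE 0.32, FDR = 2.69e-07), -2.64 at 6 days (SE 0.32, FDR = 2.26e-09) and -1.36 at 10 days (SE 0.34, FDR = 0.00246). With horse as a term the difference at 48 h was called as well (FDR = 0.0115), and at the 3 later times it was called under all 17 alternatives, with FDR of at most 0.0194. ACP5 still rose in both fluids, by 1.78 in ISF (SE 0.33, FDR = 2.90e-06) and by 3.13 in SF (SE 0.33, FDR = 9.22e-13) from 0 h to 10 days. In ISF the step that was called was the first (1.26, FDR = 0.000976), and in SF it was the first and the second (2.32, FDR = 2.89e-08, and 1.30, FDR = 0.00172).

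TRAP and cathepsin K are usually read together as osteoclast enzymes, and here their ratio moved with both time and fluid. The ratio of CTSK to ACP5 was 0.241 to 0.736 at 0 h, so ACP5 was the more abundant in every fresh library. In ISF the median ratio was 6.85 at 48 h, 15.2 at 96 h, 27.7 at 6 days and 47.5 at 10 days. In SF it was 3.94, 5.30, 4.90 and 10.5. At 10 days the ISF libraries lay between 24.1 (Catnip) and 144 (Lurie) and the SF libraries between 3.31 (Dealings) and 25.9 (Moon), with an overlap of Catnip in ISF and Moon in SF.

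CALCR (ENSECAG00000001570), the receptor through which calcitonin stops resorption, was at the limit of detection in all groups. It had 118 reads in 68 libraries, at most 8 in a library, and a highest level of 0.202 GeTMM (RimRun in ISF at 10 days). In ISF the reads per group were 10 at 48 h, 13 at 96 h, 21 at 6 days and 22 at 10 days, and in SF 6, 12, 10 and 15, beside 9 at 0 h. At 10 days the libraries lay between 0 and 0.202 GeTMM in ISF and between 0 and 0.109 in SF, where 3 reads are worth 0.0593 to 0.0956. No difference could be read at this depth.

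Between ISF and SF, 0 of the 8 tested genes were called at 48 h, 3 at 96 h, 5 at 6 days and 3 at 10 days. Over all tested genes 1.68%, 10.5%, 30.2% and 20.8% were called at these times. At 48 h 2035 of 14570 genes had an unadjusted limma p value under 0.05, among them ACP5 and OCSTAMP, and limma voom on recovered reads also called 0 of the 8. The genes higher in ISF were TNFRSF11A and OCSTAMP at 96 h, TNFRSF11A, DCSTAMP, OCSTAMP and SIGLEC15 at 6 days, and OCSTAMP and SIGLEC15 at 10 days, and ACP5 was the gene lower in ISF at each of these times. Of all genes, 6.16% were called higher and 4.3% lower at 96 h, 16.7% and 13.6% at 6 days, and 9.95% and 10.8% at 10 days. With horse as a term 2 genes were called at 48 h (OCSTAMP higher, ACP5 lower) and CTSK was added at 10 days. Whether the fluid difference changed with time was tested directly for 10 days against 48 h and against 6 days. None of the 8 genes was called in either test, in which 2.99% and 0.226% of all genes were called (2401 and 1989 genes with an unadjusted limma p value under 0.05), and limma voom called none of the 8 either. The nearest were ACP5 and TNFRSF11A for 10 days against 6 days, with 1.29 (SE 0.47, FDR = 0.184) and -1.22 (SE 0.46, FDR = 0.193). With horse as a term the first was called (FDR = 0.0458).

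**Figure D3:**
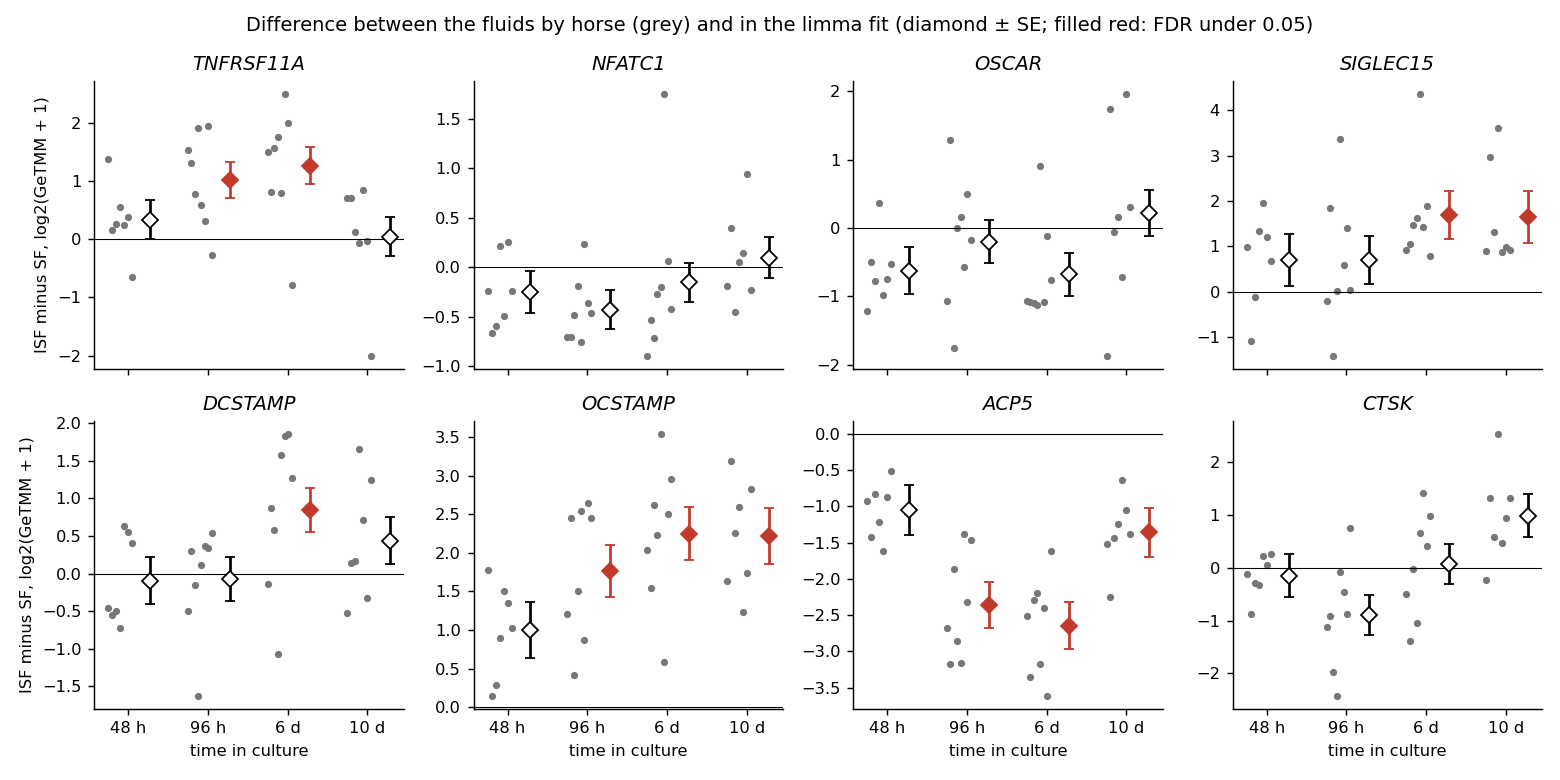
Difference between the ISF and SF culture of the same horse in log2(GeTMM + 1) (grey points) and the log2 fold change of the limma fit (diamonds, bars ± SE, filled red at an FDR under 0.05) for the 8 tested genes at 4 times. OCSTAMP is above 0 and ACP5 below 0 in every horse at every time.

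Across successive intervals, 7 of the 8 genes were called in ISF from 0 to 48 h, 2 from 48 to 96 h, 1 from 96 h to 6 days and 2 from 6 to 10 days, beside 52.7%, 19.0%, 6.38% and 10.5% of all genes. In SF the counts were 5, 3, 0 and 2, beside 45.4%, 27.3%, 2.05% and 4.78%. From 96 h to 6 days in SF, where none of the 8 was called, 2448 genes had an unadjusted limma p value under 0.05, and limma voom also called 0 of the 8. The gene not called in the first interval in ISF was NFATC1. In SF TNFRSF11A (0.74, FDR = 0.0538) and OCSTAMP (0.61, FDR = 0.159) also missed the threshold then. With no other groups in the fit, several later steps were no longer called: TNFRSF11A (FDR = 0.0773) and OCSTAMP (FDR = 0.078) from 48 to 96 h, DCSTAMP from 96 h to 6 days (FDR = 0.138) and CTSK from 6 to 10 days (FDR = 0.0982) in ISF, and TNFRSF11A (FDR = 0.189) and DCSTAMP (FDR = 0.165) from 6 to 10 days in SF. With limma voom OCSTAMP from 48 to 96 h in ISF was also lost (FDR = 0.0528). Ordered by mean log2(GeTMM + 1) over the 9 groups, CTSK and DCSTAMP ran alike, from 0 h through ISF and SF at 48 h, ISF and SF at 96 h and SF and ISF at 6 days to SF and ISF at 10 days. For both, the libraries of neighbouring groups in this order overlapped in all cases but the first, 0 h against ISF at 48 h. For OCSTAMP and SIGLEC15 the one neighbouring pair without overlap was 0 h and SF at 48 h, and for OSCAR SF at 48 h and 0 h. For TNFRSF11A, NFATC1 and ACP5 no neighbouring pair was free of overlap. The share of all tested genes with such gaps between neighbouring groups was not worked out. The gaps are thus a description and do not set these genes apart from others.

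The wider resorption machinery was higher in ISF at 6 days for most of its measured genes. This list held 12 genes for the acid pump, chloride channel, carbonic anhydrase, metalloproteinases, integrin and sealing zone, of which 11 were in the table and tested. At 6 days 7 were higher and none lower in ISF, where 16.7% of all genes were called higher, and the median log2 fold change of the list was 1.06 against 0 over all genes. CA2, the carbonic anhydrase that supplies protons, was at 90.5 ± 108 GeTMM in the 8 ISF libraries and 10.4 ± 6.64 in the 8 SF libraries (SD; log2 fold change 2.34, SE 0.66, FDR = 0.00457, 8 of 8 horses). ITGB3, the beta 3 integrin of the sealing zone, was at 26.4 ± 17.5 and 6.83 ± 4.72 (1.79, SE 0.37, FDR = 0.000136, 6 of 8 horses). MMP9, MMP14, SRC, SNX10 and SLC4A2 were the others. CLCN7 (0.10, FDR = 0.730), OSTM1 (0.35, FDR = 0.194) and TCIRG1 (0.43, FDR = 0.119) were not called. At 96 h 4 were higher (6.16% of all genes), and at 10 days 4 (9.95%), none lower at either time. From 0 h to 10 days 7 rose and 1 fell in ISF, where 36.1% of all genes were called higher and 38.4% lower, and 6 rose and 2 fell in SF, where 34.7% were called higher and 34.9% lower. The membrane protease MMP14 rose from 1.34 ± 0.612 GeTMM (n = 8) to 194 ± 67.6 in ISF and 136 ± 31.0 in SF (n = 7 each). SRC, the kinase of the ruffled border, rose by 3.59 and 3.05, and ITGB3 by 4.25 and 2.72. SNX10, a sorting protein needed for resorption, fell in both (-1.37 and -2.02), and MMP9 fell in SF (-1.90, FDR = 6.17e-05), with 0.69 in ISF (FDR = 0.131). CA2 was called lower from 0 to 48 h in both fluids, and was not called from 0 h to 10 days in either. Between the fluids CA2 was called at 96 h and 6 days but not at 10 days.

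Of 8 other fusion genes, 6 were in the table, and they showed no common direction between the fluids. At 6 days CD44, a hyaluronan receptor, was higher in ISF (0.43, FDR = 0.0226), and CD81, a tetraspanin (-0.56, FDR = 0.00515), and SH3PXD2A, the podosome scaffold TKS5 (-1.20, SE 0.38, FDR = 0.0132), were lower. At that time 16.7% of all genes were called higher and 13.6% lower. From 0 h to 10 days 4 rose and 1 fell in ISF (36.1% and 38.4% of all genes), and 3 rose and 1 fell in SF (34.7% and 34.9%). ATP6V0D2, the pump subunit tied to osteoclast fusion, went from 0.173 ± 0.141 GeTMM to 65.7 ± 49.1 in ISF and 30.1 ± 21.5 in SF, a log2 fold change of 5.25 (SE 0.73, FDR = 3.89e-09) and 4.18 (SE 0.73, FDR = 1.15e-06). SH3PXD2A rose by 1.73 and 3.06, and CD47, the "do not eat me" ligand, fell by 1.36 and 0.82.

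Among 12 genes of RANK signalling and its transcription factors, 5 rose and 5 fell in ISF by 10 days (36.1% and 38.4% of all genes), and 5 rose and 6 fell in SF (34.7% and 34.9%). The 10 and 11 called stand beside 74.5% and 69.6% of all genes. MITF, which works with NFATC1 on CTSK and ACP5 promoters in osteoclasts, rose from 2.29 ± 0.737 GeTMM to 44.8 ± 6.02 in ISF and 50.8 ± 11.2 in SF (3.82 and 3.98, SE 0.19 each). RELB of the non-canonical NF-kappaB pathway rose by 2.06 in ISF and 1.62 in SF, and CSF1R, the receptor for M-CSF, by 1.77 in each. FOS, an early partner of NFATC1, fell by 4.498 and 4.64, from 675 ± 286 GeTMM, and MAP3K14, the kinase NIK, by 2.16 and 1.32. Between the fluids at 6 days TAB2 was higher (0.49, FDR = 0.00956) and MITF lower in ISF (-0.63, SE 0.18, FDR = 0.00637), the 2 genes called of 12, beside 30.2% of all genes. With horse as a term 4 of the 12 were called, 3 higher and 1 lower.

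The inhibitors and the ITAM adaptors were mixed as well. Of 8 inhibitors 7 were tested. From 0 h to 10 days 2 rose and 4 fell in ISF (36.1% and 38.4% of all genes), and 3 rose and 3 fell in SF (34.7% and 34.9%). RBPJ, the Notch factor, rose by 1.28 in ISF and 0.56 in SF. BCL6 and INPP5D, the phosphatase SHIP1, fell in both fluids (-0.82 and -0.89 in ISF, -0.93 and -0.65 in SF). At 6 days, when 16.7% of all genes were called higher and 13.6% lower, 4 were higher in ISF, among them RBPJ (0.92, SE 0.21, FDR = 0.000419), and IRF8, which holds back NFATC1, was lower (-0.56, SE 0.12, FDR = 0.000184, lower in 8 of 8 horses). Of 10 ITAM adaptors and kinases 3 rose and 7 fell in ISF, and 2 rose and 5 fell in SF, by 10 days, beside the same shares of all genes as for the inhibitors. TREM2, a lipid receptor of macrophages, rose from 4.57 ± 2.58 GeTMM to 1022 ± 387 in ISF and 757 ± 158 in SF, and the adaptor BLNK by 4.05 and 3.26. LCP2 fell by 1.99 and 1.52, and PLCG2 by 1.49 and 1.63. At 6 days 5 were higher in ISF, among them BLNK (0.93, FDR = 1.55e-05) and VAV3 (0.71, FDR = 0.000187), and 2 were lower, TEC (-0.96, FDR = 1.66e-06) and BTK (-0.31, FDR = 0.0111).

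**Figure D4:**
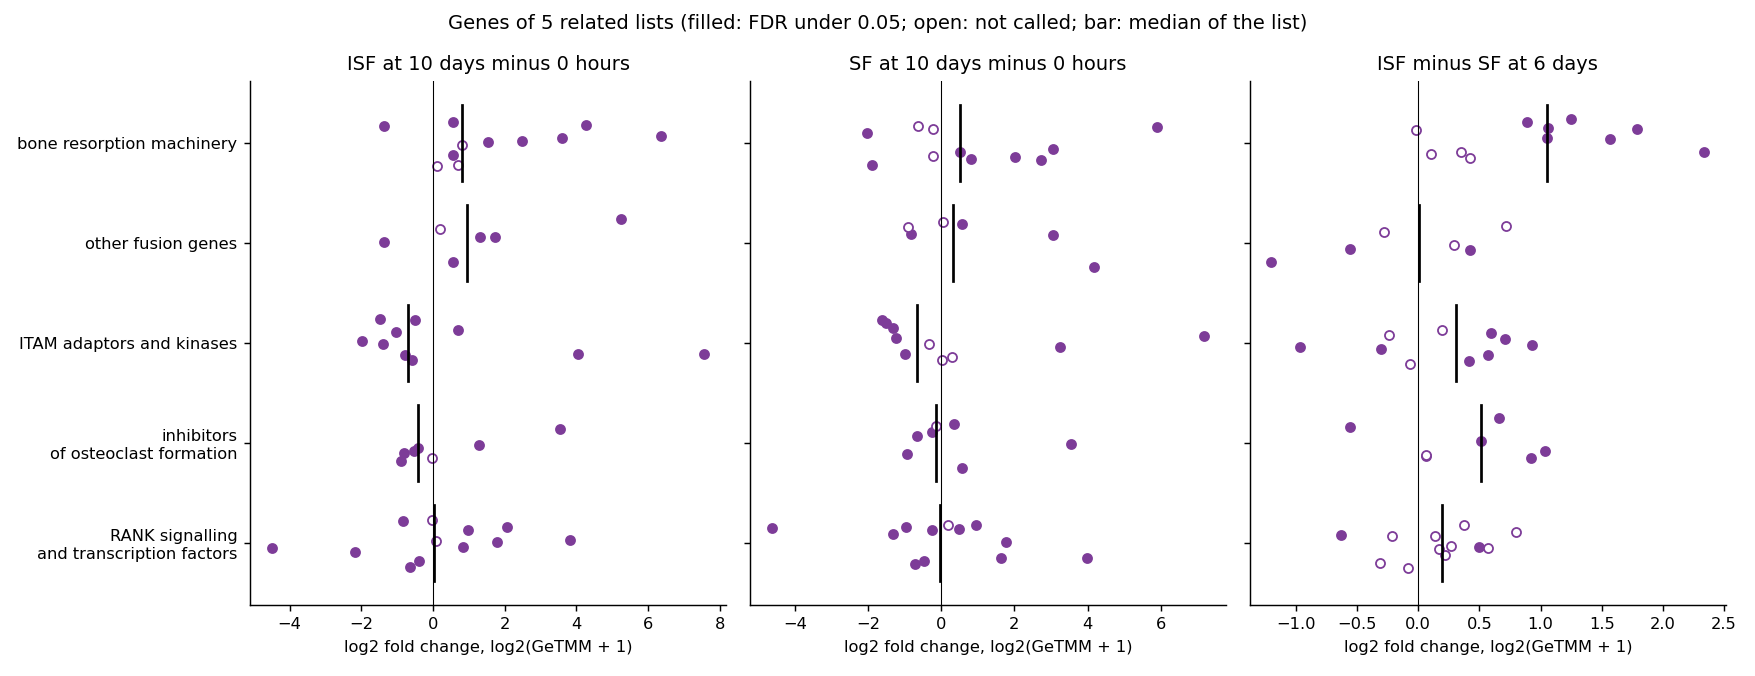
Log2 fold changes on the scale log2(GeTMM + 1) of the tested genes of 5 lists (1 point a gene, filled at an FDR under 0.05, vertical bar at the median of the list) from 0 h to 10 days in ISF and in SF and between ISF and SF at 6 days. In the last panel the median of the resorption machinery is 1.06 and that of the other fusion genes 0.004.

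Markers of other cell types also differed between the libraries. The macrophage list (5 of 6 genes in the table: CD68, CD163, MRC1, MSR1 and C1QB) had a mean log2(GeTMM + 1) of 4.94 ± 0.32 at 0 h, 7.64 ± 0.48 in ISF and 7.58 ± 0.79 in SF at 48 h, 9.38 ± 0.52 and 8.95 ± 0.47 at 6 days, and 9.04 ± 0.31 and 9.05 ± 0.43 at 10 days. It rose over the same days as CTSK, SIGLEC15 and the fusion genes. The median of its summed level was 6475 GeTMM in ISF and 5479 in SF at 6 days, and 5869 and 4635 at 10 days. Each of the 5 genes reached 0.5 GeTMM in some library of every group. In SF more of the starting cell types were seen late: at 6 days the neutrophil precursor list was at 7.97 ± 1.68 in SF and 4.56 ± 2.34 in ISF, the T cell list (5 of 5 genes) at 4.399 ± 0.945 and 2.59 ± 0.64, and the B cell list (4 of 5) at 3.19 ± 0.81 and 1.57 ± 0.82. At 10 days the T cell list was at 4.09 ± 1.02 in SF and 1.402 ± 0.390 in ISF. The part of macrophages and of these other cells in the fluid differences of the osteoclast genes was not tested.

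The stromal list (COL1A1, COL1A2, COL3A1, DCN and LUM) matters for CTSK and TNFSF11, which stromal cells can also make. In SF at 10 days its summed level ran from 0.406 to 4038 GeTMM, and in ISF from 0.123 to 49.2. Its mean log2 in SF at 10 days was 3.53 ± 3.47 (SD, n = 7), the highest of the 9 groups, and SF at 10 days also held 19 of the 41 reads of TNFSF11. At 48 h in ISF all 5 stromal genes were under 0.5 GeTMM in every library, and CTSK was at 890 to 2013 GeTMM. The part of stromal cells in the levels of CTSK at any time was not tested. Nor was the part of stromal or any other cells in the reads of TNFSF11. The osteoblast list (RUNX2, SP7, BGLAP, ALPL and IBSP) fell from a mean log2 of 3.499 ± 0.092 at 0 h to 0.84 ± 0.21 in ISF and 1.57 ± 0.55 in SF at 10 days. SP7 was under 0.5 GeTMM in every library at 0 h and in every library of both fluids at 10 days, but reached it in some ISF library at 48 h. IBSP was under 0.5 GeTMM in every ISF library, and in every SF library at 48 h, 96 h and 6 days. Which cells held the other genes of this list was not tested. The erythroid list was at 5.64 ± 1.26 at 0 h and at 0.29 ± 0.07 in ISF and 0.28 ± 0.08 in SF at 10 days.

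**Figure D5:**
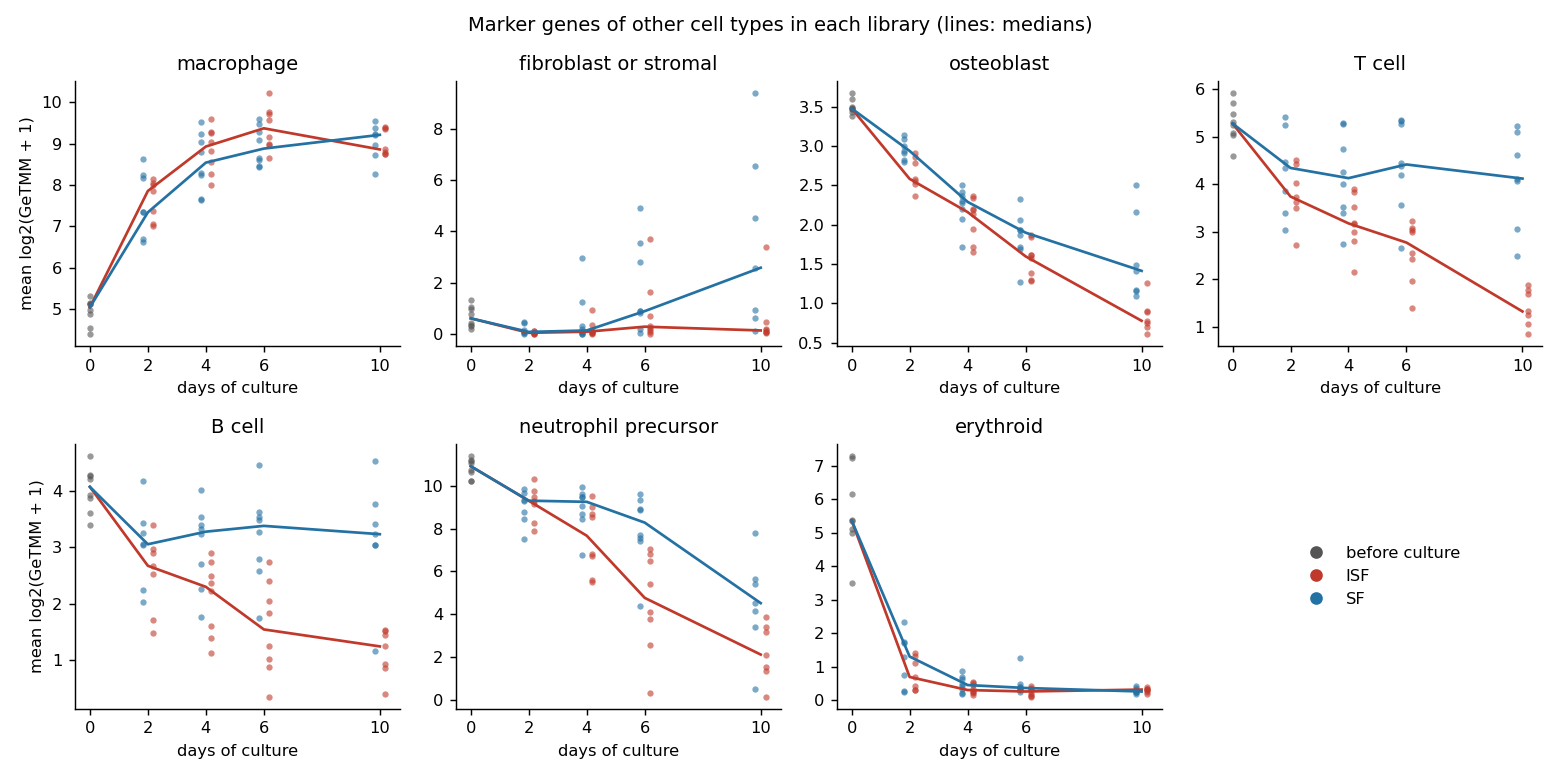
Mean log2(GeTMM + 1) of 7 lists of marker genes in each library against days of culture, with lines through the medians of ISF and SF. The macrophage list is near 9 in both fluids at 10 days, the T cell, B cell and neutrophil precursor lists are lower in ISF, and the stromal list is spread from 0.104 to 9.39 in SF.

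Horses did not rank alike for the 8 genes as a set, but some genes shared their lowest horse. In ISF this held for CTSK, DCSTAMP and SIGLEC15, with Flash lowest at 96 h and 6 days and Catnip at 10 days. At 96 h Flash was at 406, 0.827 and 7.43 GeTMM. In ISF at 10 days Catnip had the lowest SIGLEC15 (76.6 GeTMM), DCSTAMP (6.92), CTSK (4642) and OSCAR (3.16) and the highest TNFRSF11A (23.1). RimRun showed the highest OCSTAMP (63.2) and ACP5 (393) and the lowest TNFRSF11A (4.60). Ollie had the highest NFATC1 (50.6), SIGLEC15 (244) and OSCAR (20.4). At 6 days, the last time at which it was sampled, Flash had the lowest CTSK in both fluids, with 896 GeTMM in ISF and 1846 in SF, and the lowest SIGLEC15 (19.5 and 5.66). Its DCSTAMP was the lowest in ISF (2.13) but not in SF. Of 6 horses with every time point, SIGLEC15 went up at each step in 4 in ISF and 5 in SF, DCSTAMP in 5 and 4, OCSTAMP and CTSK in 4 and 4, TNFRSF11A in 2 and 5, NFATC1 in 0 and 6, and ACP5 in 0 and 1. OSCAR went down at each step in 2 and 5. The 6 horses include Dealings and Dreamer, whose ISF libraries of 96 h resembled each other's horse, and these counts take the labels as given.

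The genes whose pattern was most like each of the 8 were found by the Pearson correlation of log2(GeTMM + 1) over the 60 cultured libraries. The points share horses and time points, and the values are a description. OCSTAMP was followed closely by SLC13A3 (0.91) and SYT12 (0.90), and SIGLEC15 by GALNT6 (0.92), SNX25 (0.91) and ZNF462 (0.90). For CTSK they were CLDND1 (0.89), PPM1H (0.88) and ANXA4 (0.87), and for ACP5 HSD17B14 (0.89), HPGDS (0.88) and NUMBL (0.87). TNFRSF11A went with STXBP6 (0.87), DUSP6 (0.86) and ETV5 (0.84), and DCSTAMP with HDAC9, TMCO4 and SCRN1 (0.84 each). NFATC1 was nearest to CRIM1 (0.85), AKAP9 (0.84) and DOP1B (0.84), and OSCAR to PSTPIP1 (0.86), RGS14 (0.84) and NCF1 (0.84). No gene of the 8 was among the 3 nearest of another.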

How the data were processed

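RNA of BMNC from 8 horses was sequenced in 68 libraries. Per the study's methods, the authors trimmed reads, mapped them to EquCab 3.0 with STAR 2.7.2a, counted them on Ensembl genes with GeneCounts, and deposited GeTMM values, which resemble RPKM values (reads per kilobase) scaled between libraries with TMM factors. The authors tested with DESeq2. The deposited table holds no logarithm and no read counts. Reads were recovered from the steps between its values for 24064 of 24065 genes (99.9958%, tolerance 0.02 reads), and 1 read on 1 kilobase was worth 0.0337 to 0.0979 GeTMM.

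Here limma 3.58.1 in R 4.3.3 (lmFit, eBayes with trend, two-sided) was fitted to log2(GeTMM + 1) of the 14570 genes that reached 0.5 GeTMM in 7 or more libraries, with a term for each of 9 groups and none for horse. The test was tried on simulated data first. Horse was a term in an alternative fit, since ISF and SF cultures with the same name are from the same animal: deviations from the group means correlated at 0.074 to 0.563 within horses, except for Dealings (-0.015) and Dreamer (-0.217) at 96 h. Other alternatives were a pseudocount of 0.1, no filter, median-ratio rescaling, only the groups compared, library weights, limma voom on recovered reads, and libraries or horses left out. The 10 genes, the 5 gene lists and the 7 marker lists were chosen with earlier results of these data known. All 10 genes are named, with up to 2 genes at each end of each list among those called, from 0 h to 10 days in either fluid and between the fluids at 6 days, and the 3 genes most like each. Some genes that this rule names are not reported here. A few further list genes (MMP9, MMP14, SRC, SNX10, SLC4A2, CLCN7, OSTM1, TCIRG1, TNFRSF11B) were named after their values were seen. C1QA, CD79B, PRTN3, CAMP, ITGAV, SIRPA and ADAM8 matched no row by symbol. Intervals and floors cover counting error only. Python 3.11.15, numpy 2.4.6, pandas 2.3.3 and matplotlib 3.10.9 were used. Positions and sequences of the genes were not used here.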

Additional observations from a re-analysis of the deposited data

Results flagged for a closer look

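A library was set apart when its gap to the nearest other library of its group exceeded Dixon's 95% limit, which chance passes in about 1 in 20 groups. Of 72 groups of libraries, 9 held such a library. In the SF library of Moon at 6 days TNFRSF11A was at 0.994 GeTMM (other horses 5.46 to 11.2), NFATC1 at 5.19 (14.6 to 28.4) and DCSTAMP at 2.78 (5.54 to 9.65). The same library had the highest summed GeTMM of the series. DCSTAMP was also low in ISF for Flash at 96 h (0.827 against 3.69 to 9.03) and for Catnip at 10 days (6.92 against 17.2 to 29.6), and high in SF for Dealings at 48 h (8.07 against 3.80 to 4.98). SIGLEC15 was low for Catnip in ISF at 10 days (76.6 against 190 to 244). At 0 h SIGLEC15 was at 0.200 GeTMM in Moon and listed at 0 in the other horses, and CTSK was at 14.8 in Ollie (23.3 to 34.0 in the others).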

How the results depend on the processing

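The tally of single genes covers the fluid differences at each time and the time changes that the main fit called. Steps that the main fit did not call, and changes of the fluid difference, were left out, so they could not pass newly. Over the 9 alternatives that left no horse out, 603 of the tallied values kept their direction and their side of the threshold. Another 9 passed it newly, 15 fell below it and 3 changed sign. With each horse left out in turn the numbers were 512, 3, 33 and 12. Some steps outside the tally passed with horse as a term. In ISF they were OSCAR (FDR = 0.0208) and SIGLEC15 (FDR = 0.0496) from 48 to 96 h. CTSK (FDR = 0.0341) and SIGLEC15 (FDR = 0.0321) followed from 96 h to 6 days. In SF they were TNFRSF11A from 0 to 48 h (FDR = 0.0476) and SIGLEC15 from 48 to 96 h (FDR = 0.0392). The calls of all 8 genes from 0 h to 10 days in both fluids, of OCSTAMP and ACP5 between the fluids from 96 h on and of TNFRSF11A at 6 days were made under all 17. Between the fluids, with horse as a term (the replicate block) 2 genes were called at 48 h in place of 0, and with library weights 2 at 48 h and 5 in place of 3 at 96 h. A fit of only the groups compared called 3 at 6 days in place of 5. For ISF from 48 to 96 h (2 genes), horse as a term gave 4, the groups compared 1, library weights 4, voom 1 and horses left out 0 to 3. From 96 h to 6 days (1) the block gave 3, the groups compared 0, weights 2 and horses left out 0 to 1. From 6 to 10 days (2) the groups compared gave 1 and horses left out 1 to 2, and in SF (2) the groups compared 0, leaving out the SF library of Moon at 6 days 0 and horses left out 0 to 2. For the change of the fluid difference from 6 to 10 days the block gave 1 in place of 0. The block changed no other count of the 8 genes by over 1.5 times. Of the counts of the 5 gene lists between the fluids at each time and from 0 h to 10 days it moved 3 by over 1.5 times. They were RANK signalling at 6 days from 2 to 4, ITAM adaptors at 96 h from 1 to 2 and other fusion genes at 48 h from 0 to 1. Several other list counts moved by no more than 1.5 times. Between the fluids at 10 days the resorption machinery went from 4 genes higher to 6. The other fusion genes went there from 2 higher and 2 lower to 3 higher and 3 lower. The cause of these changes was not tested.

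Differences between the fluids that changed sign were small and not called. With library weights TNFRSF11A at 10 days became -0.156 and DCSTAMP at 96 h 0.005, and CTSK at 6 days, once Moon's SF library of that day was dropped, became -0.045. With horses left out, TNFRSF11A at 10 days ran from -0.095 to 0.379, NFATC1 at 10 days from -0.043 to 0.189, CTSK at 6 days from -0.13 to 0.268, DCSTAMP from -0.213 to 0.014 at 48 h and from -0.163 to 0.146 at 96 h, and OSCAR from -0.413 to 0.021 at 96 h and from -0.073 to 0.565 at 10 days. For TNFSF11 and CALCR, depth is the limit.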
